A study of Rattus norvegicus with 6 samples.

Results

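The 10 glycolysis enzyme genes Hk1, Hk2, Pfkl, Pfkp, Aldoa, Gapdh, Pgk1, Eno1, Pkm and Ldha were followed in rat brain after intracerebral hemorrhage (ICH), in which blood escapes into brain tissue, and after a sham operation. They were found by matching each probe's RefSeq transcript to these symbols, which gave 14 of the 30367 probes on the array and 10 of the 12965 named genes tested. All 14 probes were well above background on all 6 arrays, so every member was measured and none was lost to the filter on dim probes. The series held 3 sham and 3 ICH samples on 1 array each. Sham tissue is labelled as brain and ICH tissue as peripheral brain tissue, and by its title the study concerns injury near the hematoma (clotted blood). Both groups have day 1 entered as their age, with no statement of what it is counted from. The design text calls the second group transfected, a word that no sample label uses. The strain, the sex, the way the bleed was made and the brain region are not given in the sources used here.

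Glycolysis splits glucose into pyruvate in the cytosol and yields ATP without oxygen. Hexokinase traps glucose in the cell, phosphofructokinase sets the pace of the pathway, and lactate dehydrogenase turns pyruvate into lactate so that the chain can run on when oxygen is short. Most steps have several isozymes, which differ between neurons, glia and blood cells, and many of these genes are known targets of the hypoxia-inducible factor HIF-1. The comparison of tissue around a hematoma with sham brain asks whether transcripts of these enzymes differ there.

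The transcription factor HIF-1 binds short motifs with the core ACGTG or GCGTG, so the bases before the starts of the enzyme genes are shown for the 5 members with a RefSeq window wholly outside the annotated gene. Each window holds the 250 bases before a start in assembly GRCr8, written 5′ to 3′ on the gene's strand, with ACGTG and GCGTG on either strand in capitals.
Ldha, chr1:106507842-106508091, plus strand: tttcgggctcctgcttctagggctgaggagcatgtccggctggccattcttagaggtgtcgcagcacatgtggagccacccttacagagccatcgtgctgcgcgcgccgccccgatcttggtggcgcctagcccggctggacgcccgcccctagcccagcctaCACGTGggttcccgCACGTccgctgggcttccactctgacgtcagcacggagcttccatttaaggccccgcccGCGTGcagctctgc
Eno1, chr5:166002617-166002866, plus strand: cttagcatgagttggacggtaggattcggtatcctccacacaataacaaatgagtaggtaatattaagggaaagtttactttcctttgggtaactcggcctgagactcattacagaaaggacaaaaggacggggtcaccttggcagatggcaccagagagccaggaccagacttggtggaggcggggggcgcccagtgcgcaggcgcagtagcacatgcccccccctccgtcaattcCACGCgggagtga
Aldoa, chr1:190838022-190838271, minus strand: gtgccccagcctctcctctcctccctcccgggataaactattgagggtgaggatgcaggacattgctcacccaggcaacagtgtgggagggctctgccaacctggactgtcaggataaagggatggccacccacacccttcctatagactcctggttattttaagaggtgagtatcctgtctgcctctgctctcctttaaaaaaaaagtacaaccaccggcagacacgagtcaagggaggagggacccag
Hk2, chr4:116841276-116841525, minus strand: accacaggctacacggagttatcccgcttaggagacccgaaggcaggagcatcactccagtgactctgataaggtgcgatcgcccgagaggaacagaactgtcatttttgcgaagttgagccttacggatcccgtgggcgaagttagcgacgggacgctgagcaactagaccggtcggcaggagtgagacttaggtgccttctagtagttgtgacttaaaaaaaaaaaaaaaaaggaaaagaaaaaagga
Hk1, chr20:30874815-30875064, minus strand: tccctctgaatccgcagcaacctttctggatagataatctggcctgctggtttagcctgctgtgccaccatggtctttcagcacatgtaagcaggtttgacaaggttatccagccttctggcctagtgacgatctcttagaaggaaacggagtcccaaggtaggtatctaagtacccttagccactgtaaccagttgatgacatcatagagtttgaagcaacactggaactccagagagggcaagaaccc
The Ldha window holds 4 matches, at bases −87, −86, −73 and −14 before the start, and the pair at −87 and −86 is the palindrome CACGTG read on both strands. The Eno1 window holds 1 match, at −13, and those of Aldoa, Hk2 and Hk1 shown here hold 0. Windows of other starts, inside the annotated gene and not shown, hold a match at −192 for Aldoa and at −245 for Hk1. RefSeq gave 13 windows for 9 of the 10 genes, all but Pgk1, and 8 windows of 7 genes held a match. Over all 33469 promoter windows of this length, 36.7% held one. The members' windows ran from 48.8% to 70.0% G and C, where the median of all windows was 51.2%. A match is a string of letters, and no binding was measured here.

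None of the 10 enzyme genes passed the test between ICH and sham. Of the 10, 6 lay lower on ICH arrays (55.5% of all rows did) and 4 higher, from −0.59 for Pfkp to 0.50 for Pfkl on the log2 scale, with a median of −0.17 where that of all 22183 rows was −0.05. With quantile normalization 3 lay lower, Hk1, Pfkp and Pgk1, and the median of the 10 was 0.047. A row here is 1 gene, or 1 probe without a symbol. At an adjusted p under 0.05 limma called 0 of the 10 genes, and 0% of all rows. At an unadjusted p under 0.05 there were 2 members lower, Hk1 and Pfkp, against 8.99% of all rows, and 1 higher, Pfkl, against 5.74%. The adjusted p of the members ran from 0.299 to 0.873.

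The separation of the 2 groups has to be read beside the signal level. All 3 ICH values lay below all 3 sham values in 4 members, Hk1, Pfkp, Gapdh and Eno1 (17.3% of all rows), and above them in 1, Pfkl (10.3% of all rows). Bright rows as a class lay lower on ICH arrays after centring on the 75th percentile. Among 4078 rows with a mean level above 1, which include 8 of the 10 members, the median difference was −0.18 and 41.0% had all ICH values below all sham values. Among 1453 rows above 2, with 7 members, the median was −0.22, the quartiles were −0.36 and −0.10, and 55.2% had all ICH values below. The 4 members without overlap on the lower side are all among the 8 bright ones, so their share is near that of bright rows.

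**Figure D1:**
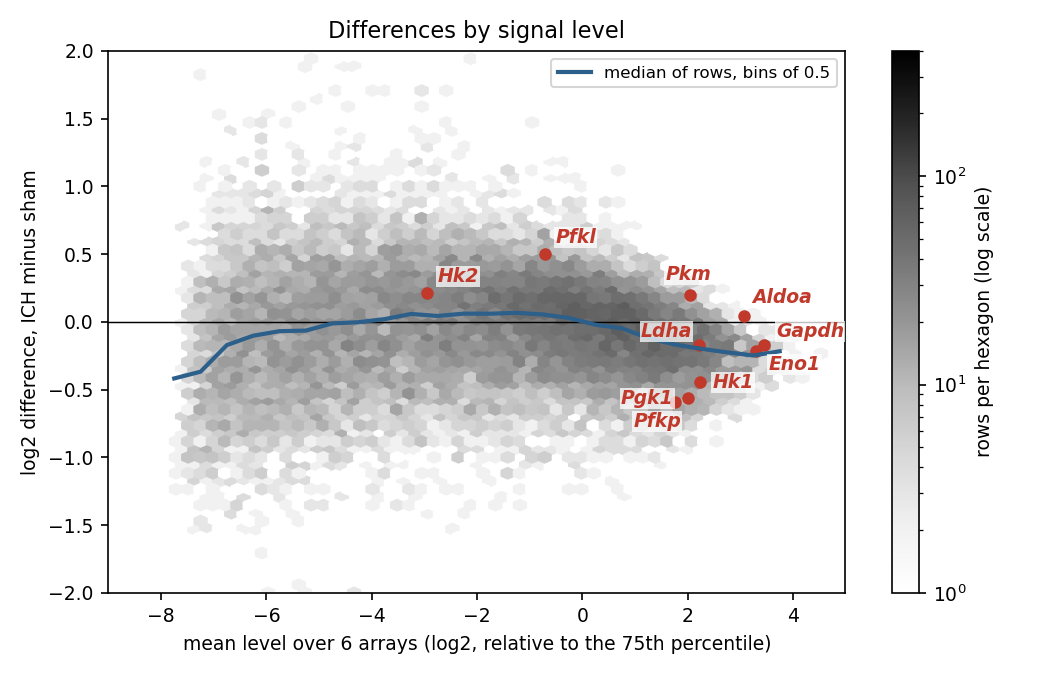
Each row tested is counted by its mean log2 level over the 6 arrays (horizontal axis) and its log2 difference, ICH minus sham (vertical axis, from −2 to 2, beyond which 115 rows are not drawn), with the median of rows as a line and the enzyme genes as red points. The line bends below 0 at high levels, and 8 of the 10 genes lie at levels above 1, with Hk1, Pfkp and Pgk1 below the line there and Pkm and Aldoa above it.

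The sham arrays agreed closely in these genes and the ICH arrays did not. The standard deviation among sham arrays had a median of 0.055 over the 10 genes, from 0.013 for Gapdh to 0.27 for Pfkl, and that among ICH arrays had a median of 0.20, from 0.11 for Aldoa to 0.66 for Pgk1. It was wider in ICH for 9 of the 10 genes. Over all rows these medians were 0.14 and 0.31. Repeated spots of the same probe on an array differed by a median of 0.046 and at most 0.17 for these genes. The Pkm probe used and 1 further Gapdh probe had 1 spot each and do not enter these values. ICH 3 lay nearest to the sham mean in 6 of the genes, ICH 2 in 4 and ICH 1 in 0.

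**Figure D2:**
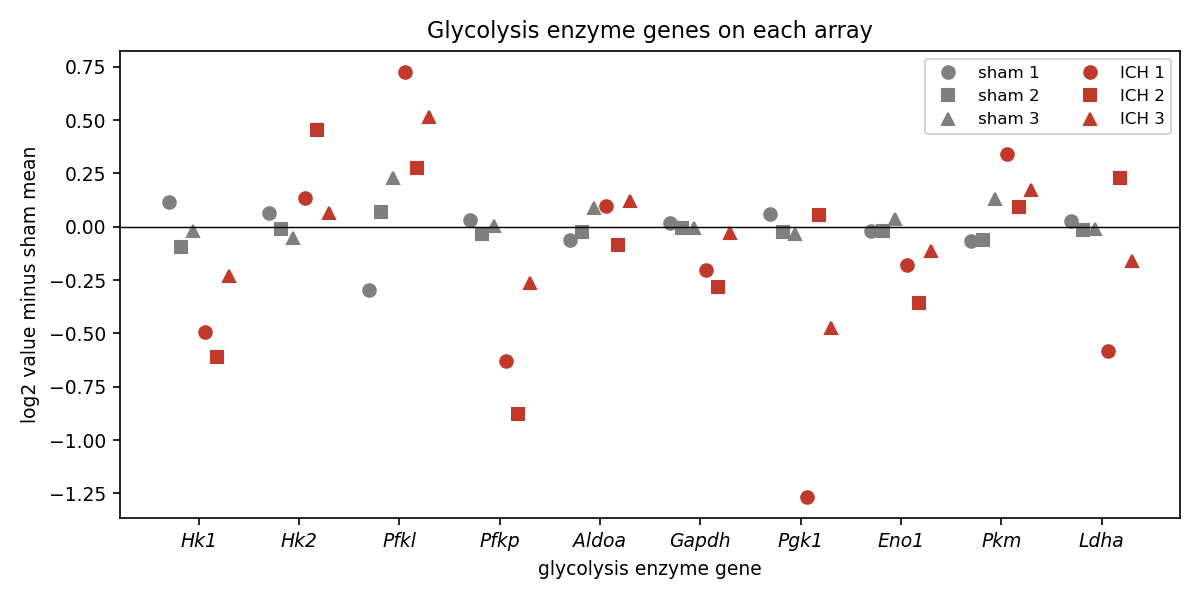
The log2 value of each enzyme gene on each array, minus the mean of the 3 sham arrays (vertical axis), is drawn for sham (grey) and ICH (red) arrays. Sham points lie near 0, least so for Pfkl, while the ICH points spread from −1.26 for Pgk1 on ICH 1 to 0.73 for Pfkl on ICH 1.

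Values per array are the deposited log2 values, relative to the 75th percentile of each array, and they are not comparable between probes. A step of 1 on this scale is a doubling of signal. Differences are ICH minus sham ± SE, n = 3 arrays per group. A change in RNA per cell and a change in the number of cells of a type cannot be told apart in bulk tissue.

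The hexokinases differed in direction. Hk1, the main hexokinase of brain, which sits on mitochondria, stood at 2.57, 2.36 and 2.43 on sham 1 to 3 and at 1.96, 1.84 and 2.22 on ICH 1 to 3. Every ICH value was below every sham value, with ICH 3 the closest to them. The difference was −0.44 ± 0.15 (95% interval −0.82 to −0.07, adjusted p = 0.307). It stayed below 0 in all 19 settings tried, though several of these, such as other filters or variance models, leave the difference itself unchanged. It was −0.26 with quantile normalization and −0.0019 with spike-in centring, where the median of all rows was 0.39. Hk2, the inducible hexokinase of muscle and of many tumours, stood at −3.0, −3.07 and −3.11 on sham 1 to 3 and at −2.93, −2.61 and −3.0 on ICH 1 to 3. ICH 2 was the high array, and ICH 3 coincided with sham 1. The difference was 0.22 ± 0.15 (95% interval −0.15 to 0.58, adjusted p = 0.502), or 0.10 without ICH 2.

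Of the phosphofructokinase subunits, Pfkp lay lower on ICH arrays, while the direction of Pfkl rested on the probe. Pfkp, the platelet-type subunit, which is abundant in brain, stood at 2.08, 2.02 and 2.05 on sham 1 to 3 and at 1.43, 1.18 and 1.79 on ICH 1 to 3. No ICH value reached the sham range, and the difference was −0.59 ± 0.18, an ICH level 0.665 times that of sham (95% interval −1.03 to −0.15, adjusted p = 0.299). It lay below 0 in all of the same 19 settings, from −0.75 without ICH 3 to −0.15 with spike-in centring.

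Pfkl, the liver-type subunit, had 2 probes that disagreed. The probe used, A_64_P163511, stood at −1.26, −0.89 and −0.73 on sham 1 to 3 and at −0.24, −0.69 and −0.45 on ICH 1 to 3, with no overlap, and differed by 0.50 ± 0.20 (95% interval 0.019 to 0.99, adjusted p = 0.334). The other, A_64_P163510, stood at −0.90, −0.76 and −0.58 on sham and at −0.49, −1.19 and −0.53 on ICH 1 to 3, and differed by 0.0073 ± 0.23. On ICH 2 that probe read below every sham array, where the first probe read above every sham array, so the direction for Pfkl rests on the probe. Both probes carry the same RefSeq accession.

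Of the enzymes in the middle of the pathway, Aldoa, the aldolase of muscle and most other tissues, had the smallest difference of the 10 with the deposited centring. It stood at 2.98, 3.02 and 3.13 on sham 1 to 3 and at 3.14, 2.96 and 3.17 on ICH 1 to 3. The ranges overlapped, with ICH 2 the lowest array of all, and the difference was 0.045 ± 0.13 (95% interval −0.27 to 0.36, adjusted p = 0.873), or −0.010 with median centring, the setting where it lay below 0. With quantile normalization it was 0.28 (adjusted p = 0.403) and with spike-in centring 0.49 (adjusted p = 0.206), further from 0 than Gapdh, Eno1 or Ldha under either.

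Gapdh, which makes the NADH of the pathway and is widely used as a reference gene, had 3 probes that moved together. The brightest, A_64_P003046, stood at 3.55, 3.52 and 3.52 on sham 1 to 3 and at 3.33, 3.25 and 3.50 on ICH 1 to 3. ICH 3 came close to the sham range and did not enter it. This probe differed by −0.17 ± 0.13 (95% interval −0.48 to 0.14, adjusted p = 0.522), and the other probes by −0.27 ± 0.12 and −0.21 ± 0.12, each with all ICH values below all sham values. The sign for Gapdh depended on the scaling, since the difference was 0.069 with quantile normalization and 0.27 with spike-in centring. On those other probes the ICH arrays read 3.04, 3.05 and 3.12 against 3.33 to 3.35 on sham, and 2.82, 2.80 and 2.96 against 3.05 to 3.10.

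Pgk1, whose enzyme makes ATP in the pathway's payoff phase, varied most among the ICH arrays. It stood at 2.34, 2.26 and 2.25 on sham 1 to 3 and at 1.02, 2.34 and 1.81 on ICH 1 to 3. ICH 2 lay inside the sham range, while ICH 1 was far below it and ICH 3 in between. The difference was −0.56 ± 0.33 (95% interval −1.37 to 0.24, adjusted p = 0.440). Without ICH 1 it was −0.21 and without ICH 2 −0.87.

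Eno1, the enolase of glia and most other tissues, stood at 3.39, 3.39 and 3.44 on sham 1 to 3 and at 3.23, 3.05 and 3.29 on ICH 1 to 3. All ICH values were below all sham values, and the difference was −0.22 ± 0.13 (95% interval −0.53 to 0.095, adjusted p = 0.443). Its sign turned with the scaling, to 0.015 with quantile normalization and 0.23 with spike-in centring.

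At the end of the pathway, Pkm, the pyruvate kinase of brain and muscle, lay on the higher side on ICH arrays. Its brighter probe, A_64_P094503, stood at 1.88, 1.89 and 2.08 on sham 1 to 3 and at 2.29, 2.04 and 2.12 on ICH 1 to 3, with ICH 2 inside the sham range, and differed by 0.20 ± 0.14 (95% interval −0.13 to 0.54, adjusted p = 0.495). The other probe, A_64_P024077, stood at 0.84, 1.02 and 1.15 on sham and at 1.69, 0.87 and 1.49 on ICH, and differed by 0.35 ± 0.24. Splicing of this gene gives a muscle and an embryonic form of the enzyme, and the files do not assign the probes to either.

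Ldha, the lactate dehydrogenase subunit that favours lactate formation, stood at 2.33, 2.29 and 2.29 on sham 1 to 3 and at 1.72, 2.53 and 2.14 on ICH 1 to 3. The ICH arrays lay on both sides of the sham arrays, ICH 1 lowest and ICH 2 highest. The difference was −0.17 ± 0.22 (95% interval −0.71 to 0.37, adjusted p = 0.706), and its sign turned to 0.035 without ICH 1, 0.025 with quantile normalization and 0.27 with spike-in centring. Ldha and Pgk1 thus had their lowest value on ICH 1, whereas 7 of the 10 genes had their lowest ICH value on ICH 2.

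Ratios within an array do not depend on how arrays are centred, so 6 pairs of isozyme genes were compared as log2 ratios relative to the sham mean. Hk2 over Hk1 stood at −0.053, 0.086 and −0.033 on sham 1 to 3 and at 0.62, 1.06 and 0.29 on ICH 1 to 3. Every ICH ratio exceeded every sham ratio, with a difference of 0.66, where the SD was 0.075 among sham and 0.39 among ICH arrays. Pfkp over Pfkl differed by −1.09, with ICH 1 to 3 at −1.35, −1.15 and −0.78 and sham 1 to 3 at 0.33, −0.10 and −0.23, and with the other Pfkl probe by −0.60. Pfkm over Pfkl, with the muscle-type subunit, differed by −0.83, or −0.33 with the other probe. Aldoa over Aldoc, the aldolase of astrocytes, differed by 0.31, with ICH arrays at 0.25, 0.46 and 0.23.

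The groups did not overlap in these 4 ratios, and each had p = 0.1 by the exact two-sided permutation test, which is the smallest p that 3 against 3 arrays allow, and 0.15 after Benjamini-Hochberg adjustment over the 6 pairs. With the other Pfkl probe the exact p stayed at 0.1 for Pfkp over Pfkl and was 0.3 for Pfkm over Pfkl. Eno1 over the neuronal enolase gene Eno2 differed by −0.077 (exact p = 0.7) and Ldha over Ldhb, the subunit that favours pyruvate, by 0.084 (exact p = 0.8), both with overlapping groups. With the mean over each gene's probes Eno1 over Eno2 differed by −0.18 without overlap (exact p = 0.1). In the Hk2 and Pfkl ratios a dim probe is set against a bright one, and bright rows lay lower as a class on ICH arrays. With quantile normalization the differences were 0.42 for Hk2 over Hk1, −0.90 for Pfkp over Pfkl, −0.64 for Pfkm over Pfkl and 0.30 for Aldoa over Aldoc.

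**Figure D3:**
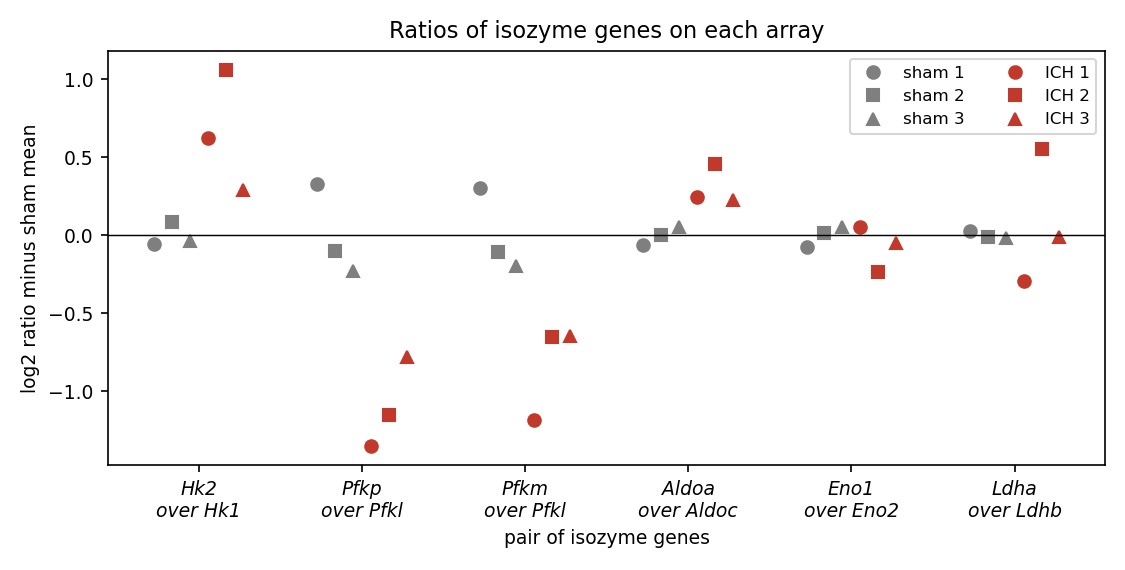
The log2 ratio of each pair of isozyme genes on each array, minus its sham mean, is drawn for sham (grey) and ICH (red) arrays. ICH points lie above all sham points for Hk2 over Hk1 and Aldoa over Aldoc, below them for Pfkp and Pfkm over Pfkl, and around them for the enolase and lactate dehydrogenase pairs.

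The other glycolytic genes on the array were mostly on the lower side too. Of 15 that passed the filter, 12 lay lower and 3 higher on ICH arrays, with a median of −0.26, 0 called, and 0 at an unadjusted p under 0.05. Of all rows 55.5% lay lower, and of rows with a mean level above 1 it was 78.5%. In 6 of them, Tpi1, Pgam1, Pfkm, Ldhb, Eno2 and Aldoc, all ICH values lay below all sham values. All 6 have a mean level above 1, where 41.0% of rows did so. Tpi1, which interconverts the triose phosphates made by aldolase, differed by −0.56 ± 0.24 (adjusted p = 0.354) and stood, relative to the sham mean, at −1.07, −0.19 and −0.41 on ICH 1 to 3. Its other probe differed by −0.59. ICH 1 was the lowest array for Tpi1, as for Pgk1 and Ldha. Pfkm differed by −0.32 ± 0.14, Ldhb by −0.26 ± 0.12, Aldoc by −0.26 ± 0.16 and Pgam1, a phosphoglycerate mutase, by −0.19 ± 0.13. Eno2 differed by −0.14 ± 0.12, and another probe of Eno2 by 0.057. Another probe of Aldoc differed by −0.48.

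Gpi, the isomerase between hexokinase and phosphofructokinase, was level at −0.024 ± 0.14. Of the isozyme genes known from liver, muscle or testis, Pgam2 stood at −0.66 ± 0.57, Ldhc at −0.50 ± 0.24, Eno4 at −0.50 ± 0.37, Eno3 at 0.10 ± 0.15 and Pklr at 0.13 ± 0.19. Gapdhs and Pgk2, of the testis, were not well above background on enough arrays to be tested.

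Hk3, the hexokinase of white blood cells, had the widest spread of the pathway. Relative to the sham mean it stood at −1.96, 1.60 and 0.36 on sham 1 to 3 and at 2.95, 2.73 and −0.87 on ICH 1 to 3, a difference of 1.61 ± 1.31 (adjusted p = 0.558). ICH 1 and 2 lay above all sham arrays and ICH 3 below 2 of them. Markers of activated myeloid cells, of which 11 of 12 were higher, had medians of −0.32, 0.29 and 0.09 on sham 1 to 3 and of 2.05, 2.54 and −0.34 on ICH 1 to 3. Neutrophil markers, 6 of 8 tested being higher, had medians of −0.50, 0.13 and 0.60 on sham and of 2.75, 3.26 and −0.01 on ICH arrays, while Mmp8, Cxcr2 and Elane were not well above background on enough arrays. The part of these cells in the Hk3 values was not tested.

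**Figure D4:**
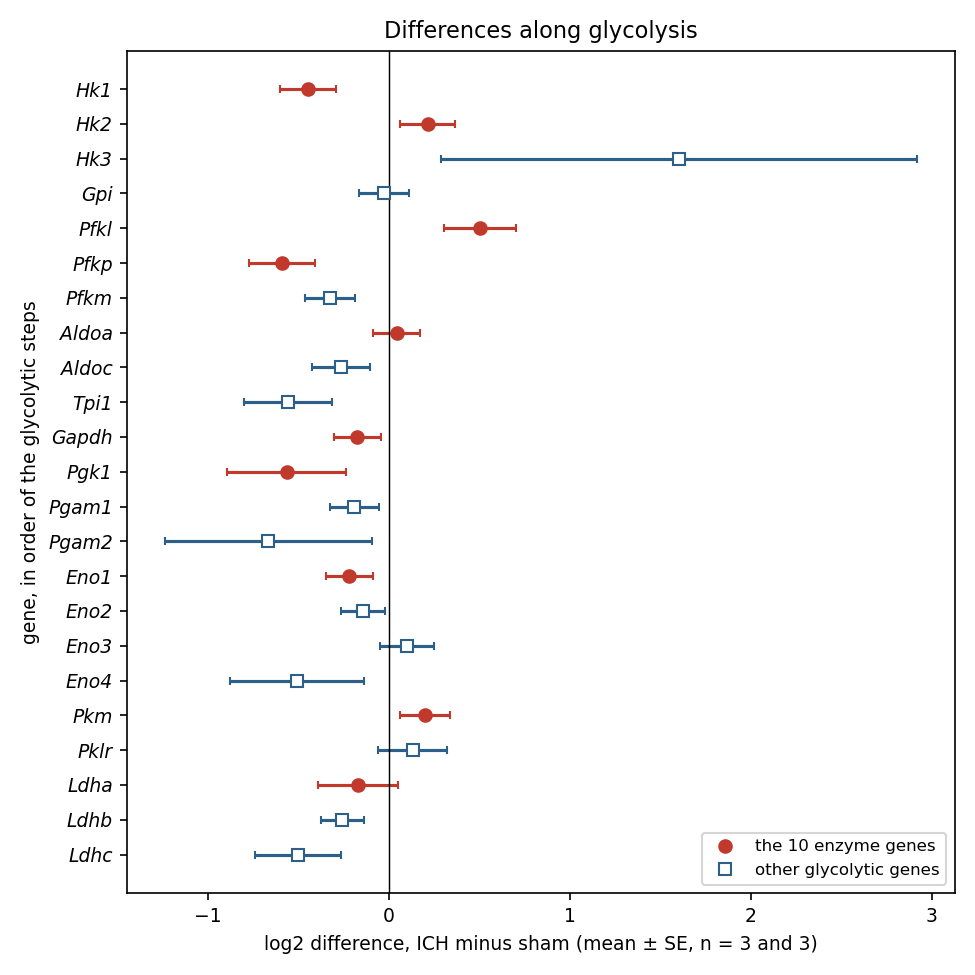
The log2 difference, ICH minus sham, of the glycolytic genes reported here is drawn with its SE (n = 3 arrays per group), in the order of the steps, with the 10 enzyme genes as red circles and other genes as open squares. All points but Hk3 lie from −0.66 for Pgam2 to 0.50 for Pfkl, and Hk3 stands apart at 1.61 with the widest error.

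Genes that feed the pathway and take up its products showed no common shift. The 13 transporter genes split into 6 higher and 7 lower (median −0.02, 0 called). At an unadjusted p under 0.05 there were 3 lower, against 8.99% of all rows, and 0 higher, against 5.74%. The mitochondrial pyruvate carrier gene Mpc1 differed by −0.82 ± 0.23 (adjusted p = 0.299), with −1.13, −0.96 and −0.36 on ICH 1 to 3 relative to the sham mean, all below the sham arrays. Slc2a5, the fructose transporter that marks microglia in brain, differed by −0.81 ± 0.23 (adjusted p = 0.299), at −0.36, −0.94 and −1.13 on ICH 1 to 3. Resident microglia markers, 6 of 9 tested being lower, had medians of −0.39, −0.59 and −0.35 on these arrays against 0.00 to 0.03 on sham arrays, and their part in the Slc2a5 values was not tested. Bsg, the chaperone of the lactate transporters and the brightest gene of this list, differed by 0.20 ± 0.14.

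Among 18 genes that steer flux or pyruvate entry there were 13 higher and 5 lower (median 0.04), with 0 called. At an unadjusted p under 0.05, where 5.74% of all rows were higher, 2 genes of the list were higher. These were Dlat, a core subunit of pyruvate dehydrogenase, at 0.45 ± 0.17 (adjusted p = 0.324), and Gpd1, which moves reducing power from NADH to glycerol phosphate, at 0.69 ± 0.26 (adjusted p = 0.325). Gpd1 stood at 1.18, 0.72 and 0.18 on ICH 1 to 3, with every ICH array above every sham array. Mdh1, the brightest of the list, differed by −0.13 ± 0.16.

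The list of HIF-1 targets outside glycolysis also held genes of HIF subunits, Arnt among them. It was split evenly, with 8 higher and 8 lower of 16 tested, a median of −0.01 and 0 called. Arnt, the constant partner of HIF-1α, differed by 0.41 ± 0.13 and the angiogenic factor gene Vegfa by −0.54 ± 0.20 (adjusted p = 0.299 and 0.319). The Arnt probe was dim, at a mean level of −5.54. Other probes of Vegfa differed by −0.37, 0.12 and −0.24. Bnip3l, a mitophagy receptor, differed by −0.30 ± 0.12. Of 9 genes for upstream regulators, 8 were higher and 1 lower, where 55.5% of all rows lay lower. Their median was 0.22, with 0 called. Myc, a transcription factor that drives glycolytic genes, stood at 1.57, 2.22 and 0.09 on ICH 1 to 3 relative to the sham mean (1.29 ± 0.53, adjusted p = 0.340), and the AMP-activated kinase subunit gene Prkaa1 differed by 0.55 ± 0.16 (adjusted p = 0.299). The Myc and Prkaa1 probes were dim as well, at mean levels of −2.15 and −4.25. Of rows with a mean level below −1, 50.1% lay lower. Rheb, the activator of mTOR, differed by −0.24 ± 0.16.

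The brightest markers of neurons (Gap43) and astrocytes (Aqp4) were well above background on all 6 arrays, so the tissue carried the transcripts of brain. Several marker lists differed between the groups in their medians. Astrocyte markers, 7 of 9 tested being lower, had medians of −0.37, −0.38 and −0.32 on ICH 1 to 3 against −0.06 to 0.05 on sham arrays. Striatal projection neuron markers were lower in 12 of 12 (median −0.95). Sham medians of that list were uneven, with sham 3 at −0.57 beside 0.29 and 0.32 for the other sham arrays. Its ICH medians were all lower still, the highest being −0.76 for ICH 1. Cortical projection neuron markers were higher in 9 of 11 (median 0.89), while markers of neurons in general were higher in 6 and lower in 5 of 11 (median 0.20). Oligodendrocyte markers, 9 of 10 being lower, stood at 0.31, −0.90 and −0.03 on ICH 1 to 3. Lists for endothelium (7 of 9 lower, median −0.45) and mural cells (8 of 10 lower, median −0.32) lay on the lower side. Those for erythroid cells (5 of 7 higher, median 0.45) and choroid plexus (8 of 10 higher, median 0.83) lay on the higher side, with overlapping groups. Sham arrays of the choroid plexus list spread from −1.06 to 1.32. For erythroid cells the sham 1 median, 0.61, exceeded every ICH median, the highest being 0.46 for ICH 1. The other sham arrays, at −0.39 and −0.21, lay below every ICH array. The part of cell makeup or of the region sampled in the enzyme gene values was not tested.

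All arrays shared 1 slide and 1 scan day. Sham 1 to 3 and ICH 1 lay in row 1 of the slide, and ICH 2 and ICH 3 in row 2, so that only ICH 1 can be set against sham within a row. With the row as a block the median of the 10 genes was −0.19, Hk1 stood at −0.49, Pfkp at −0.63, Pfkl at 0.73, Pgk1 at −1.26 and Ldha at −0.58, and 0 rows were called.

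**Figure D5:**
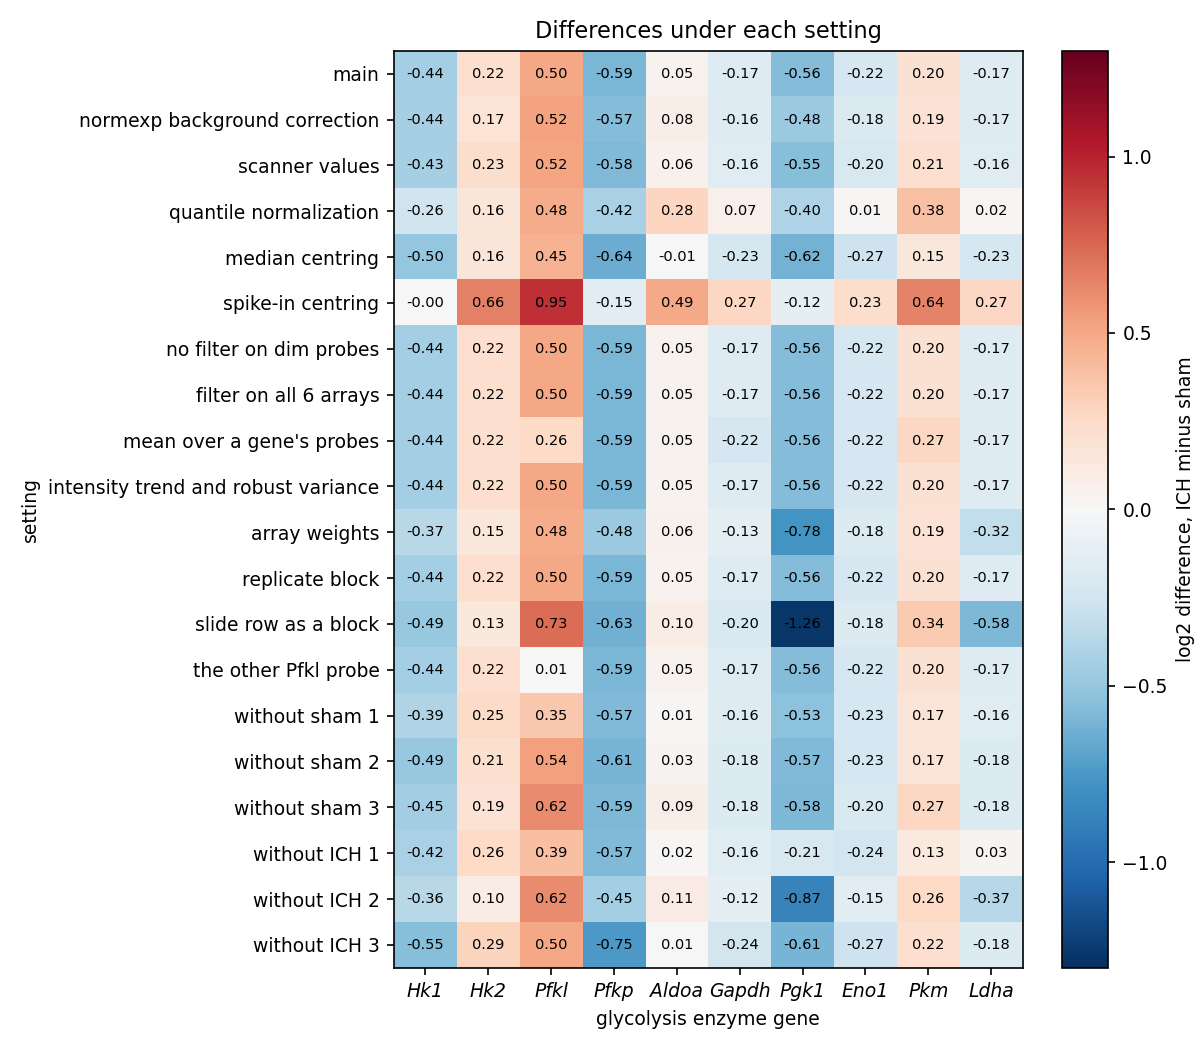
Each cell gives the log2 difference, ICH minus sham, of 1 enzyme gene (columns) under 1 setting of the processing (rows), coloured from blue (below 0) to red (above 0). Hk1, Pfkp and Pgk1 stay below 0 and Hk2, Pfkl and Pkm above 0 in every setting drawn, while Gapdh, Eno1 and Ldha turn with quantile normalization and spike-in centring, Ldha also without ICH 1, and Aldoa with median centring.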

How the data were processed

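Total RNA of 3 sham and 3 ICH rat brain samples was labelled with Cy3 by linear amplification and hybridized to 1-colour Agilent arrays, per the labels' protocols. The labels call the samples biological replicates. Per the file headers, the deposited intensity values came from version 11.5.1.1 of Agilent Feature Extraction, with background subtraction and spatial detrending but no scaling between arrays. Version 10.7 is named in the submitters' processing notes. From the values, the deposited log2 table is the log2 intensity averaged over a probe's spots, less a constant per array that sets the table's 75th percentile to 0 (within 0.001 for 98.5% to 99.3% of probes). Flags in the deposited files mark spots with 0 or 1 (another unit).

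Each array held 58717 spots other than controls, 81.8% to 85.4% of them well above background, and 0 were saturated. The number of arrays limits the precision. Probes were kept if at least 0.5 of their spots were well above background on at least 3 arrays. Accessions were matched to the RefSeq table of GRCr8 (18355 of 30367 probes named, 0 with several symbols). Each symbol took the probe with the highest mean over all 6 arrays, sham and ICH together. The deposited log2 values went into lmFit and eBayes of limma 3.58.1 (R 4.3.3) without covariates, with 6.13 degrees of freedom in all, and p-values were adjusted by Benjamini-Hochberg over 22183 rows. The test was tested on simulated data. Isozyme ratios had exact permutation tests. Promoter windows came from RefSeq, GRCr8. Other tables used Python 3.11.15, numpy 2.4.6, pandas 2.3.3 and matplotlib 3.10.9.

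The members and the 8 pathway and 12 marker lists were chosen with earlier results of these data known. All members and other glycolytic genes were to be named, with the 2 genes of lowest p and the brightest of each other pathway list, and for marker lists counts, medians and the brightest gene. Some genes that this rule names are not reported here. Alternatives were normexp correction (offset 50, on median signals), scanner values, quantile normalization, centring on the median or on 7 spike-in probes, other filters, the mean over probes, another variance model, array weights, blocks and leaving out each array. The other Pfkl probe was added after the data were examined.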

Additional observations from a re-analysis of the deposited data

How the results depend on the processing

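Of the 10 enzyme genes, 0 were called in any of the 19 settings, the lowest adjusted p being 0.118 for Pfkp. Hk1, Pfkp and Pgk1 lay below 0 and Hk2, Pfkl and Pkm above 0 in all 19. The 19 include the main setting. Other filters, the variance model and the replicate block left Hk1 at its main value of −0.44, so they are no separate checks of direction. The other Pfkl probe, at 0.0073, is not among them. Quantile normalization gave 0.069 for Gapdh, 0.015 for Eno1 and 0.025 for Ldha and a median of the 10 genes of 0.047. Spike-in centring gave 0.27 for Gapdh, 0.23 for Eno1, 0.27 for Ldha and a median of 0.27, with 33 rows called, and moved the median of all rows to 0.39. Median centring gave −0.010 for Aldoa. Rows called numbered 0 in the report, 3 with normexp, 4 with the filter on all 6 arrays, 4 with an intensity trend and robust variance, 3 with array weights, and 0 to 33 with 1 array left out (33 without ICH 3 and 8 without ICH 2). With 1 array left out the median of the 10 genes ran from −0.21 to −0.069 (without ICH 1), Ldha from −0.37 to 0.035, Eno1 over Eno2 from −0.14 to 0.0031, and Ldha over Ldhb from −0.15 to 0.27. The members at an unadjusted p under 0.05 numbered 3, and 0 without sham 1, 1 without sham 3 or ICH 1, and 4 without ICH 2. All rows at an unadjusted p under 0.05 numbered 1273 higher and 1994 lower, 5036 and 182 with spike-in centring, 887 and 2383 with median centring, and from 633 to 2040 and from 693 to 2644 with 1 array left out. The causes were not tested.

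Samples share a replicate number across groups without a stated link, and the deviations of same-numbered arrays from their group means correlated at −0.19, −0.0088 and 0.069. With the replicate number as a block 0 rows were called, 1 member had an unadjusted p under 0.05, and 868 rows higher and 1545 lower did. With 3 arrays per group, differences of the size seen here can be missed.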

Other observations

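Pathways that branch off glycolysis held no called gene, as 0% of all rows were called. In the pentose phosphate pathway, which makes NADPH and ribose, 5 of 7 genes were lower (median −0.10), and 4 had all ICH values below all sham values, as did 17.3% of all rows and 41.0% of rows with a mean level above 1. Taldo1 and Tkt are among the latter rows. The transaldolase gene Taldo1 stood at −0.68, −0.61 and −0.30 on ICH 1 to 3 relative to the sham mean (−0.53 ± 0.15, adjusted p = 0.299), and the transketolase gene Tkt at −0.35, −0.46 and −0.11 (−0.31 ± 0.14, adjusted p = 0.375). Of 17 genes of the tricarboxylic acid cycle 11 were lower (median −0.11). Sdhc, a membrane anchor of succinate dehydrogenase, had values of −0.72, −1.12 and −0.29 on the ICH arrays (−0.71 ± 0.23, adjusted p = 0.299). The succinyl-CoA ligase subunit gene Suclg1 differed by −0.43 ± 0.17 and the brightest of the list, Idh3g, by −0.11 ± 0.14.

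Genes of glycogen handling went both ways, 6 higher and 13 lower of 19 (median −0.14). The glycogen phosphorylase of muscle, Pygm, which astrocytes also use, had values of 0.44, 0.65 and 0.60 on the ICH arrays, all above sham (0.56 ± 0.15, adjusted p = 0.299). The brain form, Pygb, stood at −0.44, −0.51 and −0.17, all below them (−0.37 ± 0.15, adjusted p = 0.328). Ppp1r3c, which targets a phosphatase to glycogen, stood at −0.69, −0.63 and −0.40 (−0.57 ± 0.15, adjusted p = 0.299). The difference between Pygm and Pygb was not tested.

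The brightest genes of 10 marker lists are given here, and like all other rows they were not called. They differed by −0.37 ± 0.16 for Gap43 (neurons), −0.65 ± 0.16 for Arpp21 (striatal), 0.26 ± 0.18 for Nrgn (cortical) and −0.46 ± 0.13 for Aqp4 (astrocytes). Lgals3 (myeloid) differed by 0.75 ± 0.61, Slpi (neutrophils) by 2.08 ± 1.26 and Hbb-b1 (erythroid) by 1.25 ± 0.36. Differences were −0.36 ± 0.14 for Cldn5 (endothelium), −0.34 ± 0.17 for Tagln (mural) and 0.15 ± 0.47 for Ttr (choroid plexus). Gap43 went against the median of its list (0.20). Other probes of Arpp21 differed by −0.90 and 0.27. Relative to the sham mean, Lgals3 stood at 1.78, 1.12 and −0.65 on ICH 1 to 3, and Slpi at 3.15, 3.66 and −0.57.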
